A study of Mus musculus with 6 samples.

Results

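Described here are 10 genes for transcription factors of the red cell and platelet lineages, in mouse leukaemia cells treated with panobinostat or vehicle. The genes, fixed by name, are Gata1, Gata2, Zfpm1, Tal1, Lmo2, Ldb1, Lyl1, Klf1, Gfi1b and Nfe2. All 10 were present among the 27179 genes of the deposited count table, and all 10 were among the 13207 genes that passed the filter on low counts. Both groups hold GFP-positive, viable leukaemia cells sorted from the spleen, of the cell line labelled A/E9a;NRASG12D;Ifnar1-/- on strain C57BL/6. The vehicle group therefore carries the same A/E9a fusion oncogene (a short form of AML1-ETO), activated NRAS and loss of the interferon receptor subunit Ifnar1 as the panobinostat group, and the groups differ by 3 days of treatment. Panobinostat is an inhibitor of histone deacetylases, and 3 libraries were made per group. The labels give no age, do not say whether the cells derive from 1 clone, and do not tie libraries to animals. The tests therefore weigh differences against the spread among libraries within the groups, which may be technical.

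GATA1 and GATA2 are zinc finger proteins that bind the same short DNA motif. During red cell formation GATA1 takes over sites that GATA2 held in progenitors, a handover known as the GATA switch. Much of their activity runs through a complex in which the helix-loop-helix protein TAL1, or its relative LYL1, is joined to a GATA factor by LMO2 and LDB1. Friend of GATA (Zfpm1) binds the GATA factors themselves, and KLF1, GFI1B and NFE2 act beside or below them in red cells, megakaryocytes and mast cells.

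Promoter sequences are shown for 5 of the genes, because Gata1 and Gata2 parted in 1 library as given below, Gfi1b had the widest range, and Klf1 and Tal1, like Gfi1b, carry a GATA match. For Gata2 and Tal1, which have a further promoter each, only 1 is shown. The Gata1 sequence lies inside the gene's annotated span, so the bases before the 5′ end of that span, at 7976663, are not covered. They are RefSeq sequences of GRCm38.p6, the assembly of mm10, 5′ to 3′ on the gene's strand, and end at the base before the first annotated transcript start in the window. Capitals mark the GATA motif, NGATAN with A or T first and A or G last, read on either strand.
Gata1 (chrX:7967911-7968160, minus strand): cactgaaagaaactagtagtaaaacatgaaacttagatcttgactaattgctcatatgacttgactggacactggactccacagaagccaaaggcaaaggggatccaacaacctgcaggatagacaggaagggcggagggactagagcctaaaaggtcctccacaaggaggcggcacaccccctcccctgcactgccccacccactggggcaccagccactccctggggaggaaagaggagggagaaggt
Gata2 (chr6:88193641-88193890, plus strand): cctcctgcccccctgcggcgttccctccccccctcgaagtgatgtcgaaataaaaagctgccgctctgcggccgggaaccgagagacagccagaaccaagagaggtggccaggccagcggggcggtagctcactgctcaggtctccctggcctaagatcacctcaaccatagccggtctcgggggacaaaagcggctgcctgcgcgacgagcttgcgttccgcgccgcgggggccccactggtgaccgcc
Klf1 (chr8:84901732-84901927, plus strand): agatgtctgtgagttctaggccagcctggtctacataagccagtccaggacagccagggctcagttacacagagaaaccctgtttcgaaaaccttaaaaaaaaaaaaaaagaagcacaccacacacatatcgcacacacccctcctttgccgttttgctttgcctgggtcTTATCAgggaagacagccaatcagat
Gfi1b (chr2:28621983-28622232, minus strand): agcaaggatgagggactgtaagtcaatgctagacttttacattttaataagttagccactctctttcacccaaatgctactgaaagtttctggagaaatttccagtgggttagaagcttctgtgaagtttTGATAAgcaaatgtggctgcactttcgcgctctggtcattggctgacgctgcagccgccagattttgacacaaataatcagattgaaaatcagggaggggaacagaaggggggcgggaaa
Tal1 (chr4:115056176-115056425, plus strand): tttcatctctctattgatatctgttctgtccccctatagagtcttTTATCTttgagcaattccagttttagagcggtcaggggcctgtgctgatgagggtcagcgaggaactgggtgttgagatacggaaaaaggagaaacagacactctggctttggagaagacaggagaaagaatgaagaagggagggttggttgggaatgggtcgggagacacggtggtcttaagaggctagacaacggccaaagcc
RefSeq promoters were found for 8 of the 10 genes, 12 promoters in all, since some genes have several starts. A GATA match lay in the 250 bases before the start in 4 of the 12 promoters, and in 26.5% of all 32851 promoters of that length. Counted from the end of the printed sequence, the matches began 120 bases back for Gfi1b, 205 for the Tal1 promoter shown and 26 for Klf1. The Klf1 sequence stops short of its RefSeq start at 84901982, so its match lies further from that start. The other promoter with matches was 1 of 3 of Ldb1. The promoters of Tal1 and Gata2 that are not shown had 0 GATA matches. Matches to CCNCNCCC, the kind of CACCC box that KLF1 binds, lay in 10 of the 12 promoters and in 45.9% of all promoters, on either strand. The E-box CANNTG, the kind of site that TAL1 and its partners bind, lay in 5 of the 12 and in 66.2% of all; that of Klf1 lies in the part of its 250 bases past the annotated start, which is not printed. TGAGTCA, the core of NFE2 sites, lay in 0 of the 12 and in 4.46% of all. These are matches of letters, and binding was not measured.

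Library totals ran from 31989622 to 35962605 counts. Libraries are named by group and by the number in the column header, which the labels do not tie to a replicate number. On the first principal component of all tested genes vehicle library 1 stood on the side of the panobinostat libraries, at -53.7 against 54.3 and 56.4 for vehicle libraries 2 and 3, and panobinostat library 1 stood apart on the second, at 64.9 against at most -0.9 for every other library. Results are therefore given with all 6 libraries, without vehicle library 1, and without both libraries numbered 1. The last of these settings was added after the data were seen.

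All 10 genes were strongly expressed. On the scale of counts per length of merged exon and library size (RPKM), which allows genes to be compared, they stood above 94.0 to 98.4% of the 11717 tested genes with a known exon length. Gata2 had the highest mean over the 6 libraries, at 226 ± 46.2 RPKM, followed by Gfi1b at 214 ± 103, Klf1 at 177 ± 36, Lmo2 at 172 ± 37.9 and Gata1 at 145 ± 26.5 (SD, n = 6). Below these came Tal1 at 113 ± 17.7, Nfe2 at 106 ± 28.2, Ldb1 at 105 ± 13.7, Zfpm1 at 105 ± 44.8 and Lyl1 at 88.7 ± 12.2 RPKM. Of the 9 pairs of neighbours in this order, only Lmo2 over Gata1 and Gata1 over Tal1 kept their order in 6 of 6 libraries with a mean difference above its spread, at 0.24 ± 0.08 and 0.35 ± 0.17 on the log2 RPKM scale (SD). The other 7 pairs, from Gata2 over Gfi1b to Zfpm1 over Lyl1, differed by less than the spread of their difference. Some relatives were low by comparison: Lmo1 and Zfpm2 had 0 counts in every library, which allows up to 3 counts each, and Gata3, the GATA factor of T cells and some other lineages, averaged 17.4 RPKM. Others were less so, with Nfe2l2, a relative of Nfe2, at 63.8 RPKM and Klf6, a relative of Klf1, at 42.8 RPKM.

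**Figure D1:**
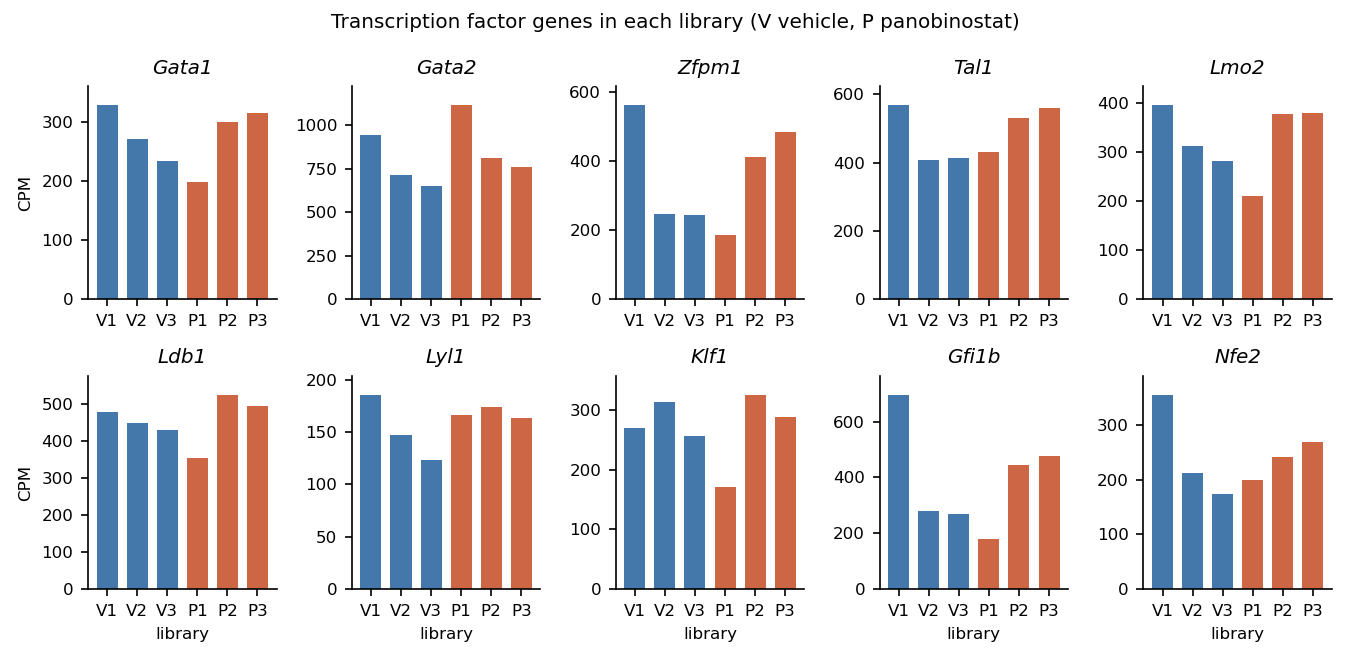
Counts scaled to library size (CPM, with TMM factors) of the 10 genes, one bar per library, with vehicle libraries in blue and panobinostat libraries in orange; each panel starts at 0 and has its own scale. Vehicle library 1 is the highest bar for 7 genes, panobinostat library 1 is the lowest for 6, and in Gata2 panobinostat library 1 is the highest.

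Of the GATA factors, Gata1 (chromosome X, 7959260 to 7976663, GRCm38), the master factor of red cells and megakaryocytes, measured 328, 272 and 234 CPM under vehicle (libraries 1, 2 and 3) against 199, 300.4 and 316 CPM under panobinostat (libraries 1, 2 and 3). The lowest value was that of panobinostat library 1, and the groups overlapped. Its log2 fold change was -0.03 (SE 0.22, edgeR's quasi-likelihood test), with a 95% interval from -0.55 to 0.49. Gata2 (chromosome 6, 88193891 to 88207032), the factor of stem cells, progenitors and mast cells, measured 944, 713 and 649 CPM under vehicle against 1112, 808 and 758 CPM under panobinostat. Here panobinostat library 1 was the highest of the 6, and vehicle library 1 stood above panobinostat libraries 2 and 3. Gata2 had a log2 fold change of 0.22 (SE 0.21), with a 95% interval from -0.29 to 0.72, the smallest p of the 10 genes at 0.339 unadjusted.

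The Gata1 level divided by the Gata2 level, both in RPKM, was 0.674, 0.738 and 0.699 in vehicle libraries and 0.346, 0.720 and 0.808 in panobinostat libraries 1, 2 and 3. Of the 6 libraries 5 lay within a narrow band, and panobinostat library 1 lay far under it. On the scale of log2(RPKM + 0.1), Gata1 stood 0.51 ± 0.07 under Gata2 in vehicle and 0.77 ± 0.66 under it in panobinostat libraries (SD, n = 3). The group difference was -0.26, with p = 0.9 in an exact two-sided permutation test, whose smallest possible p with 3 against 3 is 0.10. Without panobinostat library 1 the difference was 0.12 (exact p = 0.3), so that library set its sign.

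**Figure D2:**
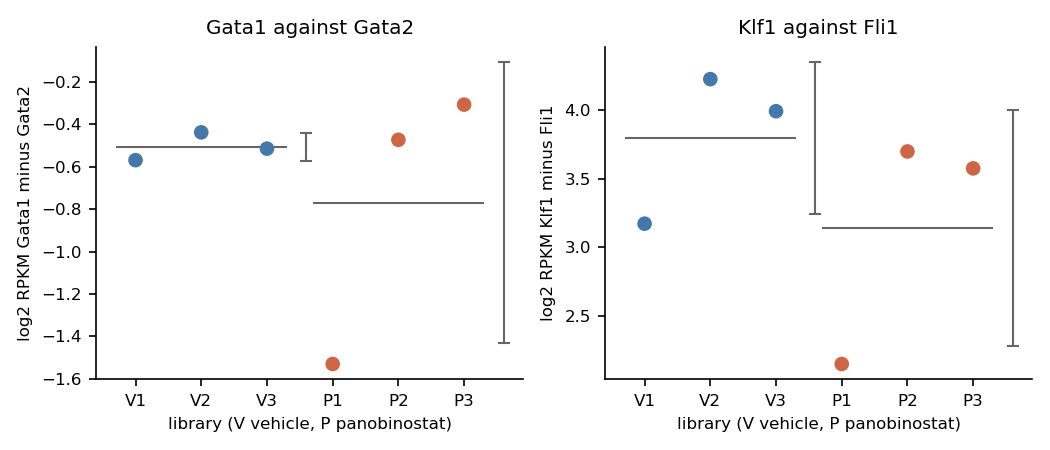
Difference between 2 genes in log2(RPKM + 0.1) within each library, Gata1 minus Gata2 on the left and Klf1 minus Fli1 on the right; horizontal lines are group means and bars show 1 SD around them. Panobinostat library 1 is the lowest point in both panels, at -1.53 and 2.15.

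Zfpm1 (chromosome 8, 122281856 to 122337862), which encodes the GATA cofactor FOG1, measured 562, 246 and 244 CPM under vehicle against 187, 413 and 485 CPM under panobinostat. Its highest and lowest libraries, vehicle 1 and panobinostat 1, differed 3.01-fold. The log2 fold change was 0.04 (SE 0.47), with an interval from -1.09 to 1.18, so the spread within each group leaves a change of over 2-fold either way within the interval.

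In the TAL1 complex, Tal1 (chromosome 4, 115056426 to 115071755), the helix-loop-helix subunit, measured 568, 407 and 414 CPM under vehicle against 430.4, 531 and 561 CPM under panobinostat. All 3 panobinostat libraries lay above vehicle libraries 2 and 3 and below vehicle library 1. Lmo2 (chromosome 2, 103957903 to 103981878), the bridging LIM protein, measured 395, 313 and 281 CPM under vehicle against 211, 378 and 380.1 CPM under panobinostat. It followed the order seen in Gata1, with panobinostat library 1 lowest and vehicle library 1 highest. Ldb1 (chromosome 19, 46031525 to 46048145), the LIM-binding scaffold that also serves many other tissues, measured 478, 448 and 429 CPM under vehicle against 354, 523 and 493 CPM under panobinostat. Its vehicle libraries were close together, and the panobinostat libraries lay on both sides of them. Lyl1 (chromosome 8, 84701423 to 84704716), the relative of Tal1, measured 185, 147 and 123 CPM under vehicle against 166, 174 and 163 CPM under panobinostat, so that only vehicle library 1 kept the groups from separating. Its span overlaps Nfix, which had at most 400 counts in a library against 4239 or more for Lyl1, and the strand setting of the counting is not given in the sources used here. Log2 fold changes of Tal1, Lmo2, Ldb1 and Lyl1 were 0.13 (SE 0.18), -0.03 (SE 0.26), 0.02 (SE 0.16) and 0.15 (SE 0.16).

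Among the factors that act beside or below the GATA proteins, Klf1 (chromosome 8, 84901982 to 84905291), the activator of adult beta globin, measured 270.1, 313 and 257 CPM under vehicle against 171, 324 and 288 CPM under panobinostat. Only panobinostat library 1 left the range of the vehicle libraries by a wide margin. Gfi1b (chromosome 2, 28609450 to 28621982), a zinc finger repressor that recruits the histone demethylase LSD1, measured 694, 280.0 and 268 CPM under vehicle against 178, 444 and 476 CPM under panobinostat. It had the widest range of the 10 genes, 3.90-fold between vehicle library 1 and panobinostat library 1. Nfe2 (chromosome 15, 103248212 to 103258403), the large subunit of the NF-E2 dimer of megakaryocytes and red cells, measured 354, 213 and 174 CPM under vehicle against 200.1, 242 and 269 CPM under panobinostat. The level in vehicle library 1 was 2.54 times the mean of the other vehicle libraries in Gfi1b, 1.83 times in Nfe2 and 0.948 times in Klf1. Log2 fold changes of Klf1, Gfi1b and Nfe2 were -0.10 (SE 0.24), -0.18 (SE 0.51) and -0.06 (SE 0.28).

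With all 6 libraries edgeR called 0 of the 10 genes, and 0% of the 13207 tested genes, at an adjusted p under 0.05. At an unadjusted p under 0.05 it found 0 of the 10, against 2.28% of tested genes, and limma-voom also called 0 of the 10. DESeq2 called 0 of the 10 against 0.0686% of 13115 genes, 0.0534% higher and 0.0152% lower. The adjusted p of every member was 0.998. Estimates were above 0 for 5 genes and below 0 for 5, with a median log2 fold change of -0.006 against 0.0009 over all tested genes. The groups overlapped in all 10 genes, while 7.43% of tested genes had groups that did not overlap, 3.79% with panobinostat higher and 3.63% with it lower. These tests do not show that the levels were equal, since the 95% intervals together reached from -1.42 (Gfi1b) to 1.18 (Zfpm1).

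Without vehicle library 1 edgeR again called 0 of the 10 genes, against 2.42% of 13369 tested genes (0.419% lower, the rest higher), and Lyl1 alone had an unadjusted p under 0.05, at 0.0285 (edgeR adjusted p 0.192). The estimates were then above 0 for 9 of the 10 genes, Klf1 being the exception at -0.14, with a median of 0.29 against -0.0081 over all genes. With panobinostat library 1 alone left out, edgeR called 0 of the 10 genes and 0 of all tested genes. All 10 estimates were above 0 there too, from 0.03 (Gata2) to 0.36 (Zfpm1). Without both libraries numbered 1, which left 2 libraries per group, 3 of the 10 genes were called higher and 0 lower with panobinostat, against 7.36% and 4.65% of 13239 tested genes, 12.0% in all. Zfpm1 had a log2 fold change of 0.86 (SE 0.10, edgeR adjusted p 0.00583), Gfi1b of 0.74 (SE 0.086, adjusted p 0.00530) and Tal1 of 0.40 (SE 0.083, adjusted p 0.0301). All 10 estimates were above 0 in that setting, with a median of 0.33 against -0.0178 over all genes, and Gata1 and Gata2 stood at 0.28 (adjusted p 0.129) and 0.19 (adjusted p 0.216). The libraries were left out because they stood apart over all genes, in which the 10 genes take part, so these calls are a description of the remaining 4 libraries.

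**Figure D3:**
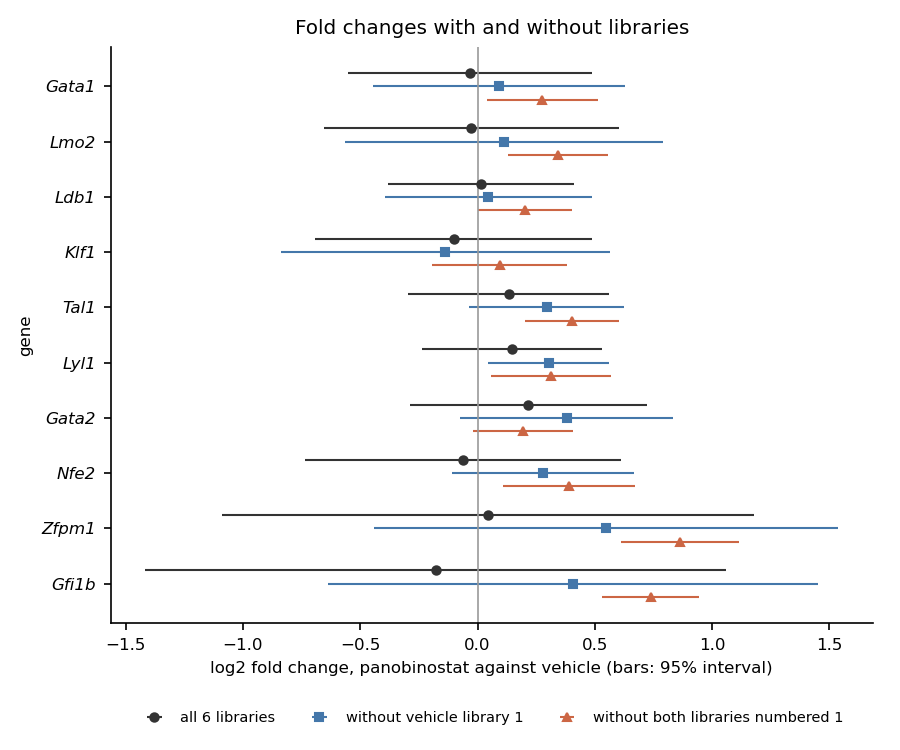
Log2 fold change of each gene, panobinostat against vehicle, with its 95% interval, from all 6 libraries (circles), without vehicle library 1 (squares) and without both libraries numbered 1 (triangles). With all 6 libraries every interval spans 0; without both libraries numbered 1 the estimates lie between 0.09 (Klf1) and 0.86 (Zfpm1).

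Across the 6 libraries the genes fell into patterns that the treatment groups did not give. Vehicle library 1 was the highest of the 6 for 7 of the 10 genes, as it was for 22.4% of all tested genes. Panobinostat library 1 was the lowest for 6 of the 10, as it was for 20.4% of all tested genes. Zfpm1 and Gfi1b swung most, from 0.77 and 0.97 above their own mean log2 CPM in vehicle library 1 to -0.82 and -0.99 in panobinostat library 1. Gata2 went the other way in panobinostat library 1, at 0.44, and Lyl1 was near its mean there, at 0.07. The sum of the 10 genes ran from 3073 to 4779 CPM in vehicle and from 3209 to 4190 CPM in panobinostat libraries.

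**Figure D4:**
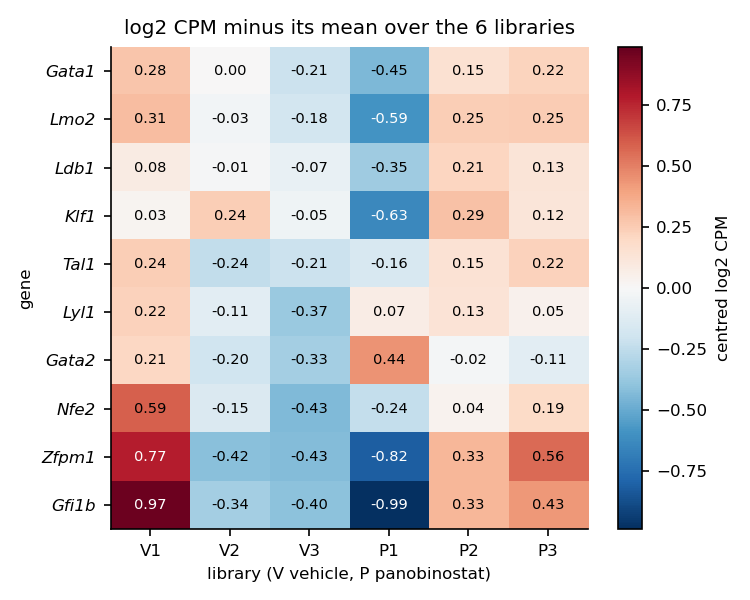
Log2 CPM of each gene minus its mean over the 6 libraries, with the value written in each cell, red above and blue below the mean. Zfpm1 and Gfi1b range from 0.77 and 0.97 in vehicle library 1 to -0.82 and -0.99 in panobinostat library 1, while Gata2 is at 0.44 in the latter.

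Likeness was measured as the root mean square difference between centred log2 CPM values over the 6 libraries, which share depth and preparation, so it is a description. Among the members the closest pairs were Gata1 with Lmo2 (0.076), Gata1 with Ldb1 (0.115), Zfpm1 with Gfi1b (0.125) and Tal1 with Lyl1 (0.145). The least alike were Gata2 with Gfi1b (0.715) and Gata2 with Zfpm1 (0.650). Ordered by likeness to Gata1 among 6451 other genes with a mean log2 CPM of at least 5, Lmo2 had rank 10, Ldb1 rank 61 and Tal1 rank 200, while Zfpm1, Gata2 and Gfi1b had ranks 4332, 5162 and 5198. The genes most like Gata1 were Taldo1 (0.059), Gypc (0.062), H2aj (0.064), Ctsd (0.065) and Commd3 (0.066). Those most like Gata2 were Esyt1 (0.035), Pla2g4a (0.040), Cap1 (0.050), Tecpr2 (0.050) and Dennd1b (0.055). Lyl1 was the member most like Gata2, at rank 407, and Gfi1b the least, at rank 6290.

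Partners of the complex and relatives of the members gave 0 calls with all 6 libraries. Of 14 genes for E proteins, LDB1-binding proteins and corepressors of the TAL1 complex and for relatives of its subunits, 10 were tested, 6 of them estimated higher and 4 lower, with a median log2 fold change of 0.03, which turned to -0.06 without vehicle library 1 and -0.13 without both libraries numbered 1. Tcf3, the E protein that pairs with TAL1, had the highest level of them at 100.2 RPKM, and measured 279, 381 and 375 CPM under vehicle against 239, 342 and 311 CPM under panobinostat. Its lowest library was panobinostat library 1, as for Gata1. Ssbp4, an LDB1-stabilising protein, and Lmo4, a relative of Lmo2, had log2 fold changes of 0.19 (SE 0.10) and 0.55 (SE 0.51). Without both libraries numbered 1 edgeR called 1 of the 10 higher and 1 lower, against 7.36% and 4.65% of all tested genes. Cbfa2t3, the corepressor ETO2, was higher (0.63, adjusted p 0.0166) and Gata3 lower (-0.77, adjusted p 0.0204). Both were named after their values were seen.

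Of 7 partners and relatives of NFE2, all were tested, 4 of them estimated higher and 3 lower, with a median of 0.07. Bach1, a repressor at NFE2-type sites, measured 58.3, 84.4 and 98.1 CPM under vehicle against 70.6, 53.7 and 49.7 CPM under panobinostat. The log2 fold change of Bach1 was -0.47 (SE 0.23, edgeR adjusted p 0.998), and -0.83 without both libraries numbered 1 (adjusted p 0.00693). In that setting 2 of the 7 were called lower and 0 higher, against 4.65% and 7.36% of all tested genes. The other was Bach2, a relative of Bach1 (-1.69, adjusted p 0.00544), named after its values were seen. The list's median was 0.15 there. Nfe2l2 (NRF2), the relative with the highest level, had a log2 fold change of -0.01 (SE 0.23), and the small MAF partner gene Maff one of 0.85 (SE 0.54) at no more than 3.46 CPM. Mafg, another small MAF partner, stood at 34.3, 23.9 and 26.2 and then 27.7, 35.8 and 30.7 CPM.

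Of 10 corepressor subunits and relatives of GFI1B and KLF1, 9 were tested, with a median of 0.02 and 0 called, also without both libraries numbered 1. Kdm1a, the LSD1 demethylase that GFI1B recruits, stood between 80.7 and 98.2 CPM in every library. Hdac1, a deacetylase that is itself a target of panobinostat, had a log2 fold change of -0.12 (SE 0.11). Klf13, a relative of Klf1, measured 141, 151 and 149.5 CPM under vehicle against 129, 134 and 135 CPM under panobinostat, groups that did not overlap, with a log2 fold change of -0.15 (SE 0.08, edgeR adjusted p 0.998). Gfi1, the relative of Gfi1b in granulocytes and lymphocytes, was at most 1.36 CPM. Of 14 other blood transcription factors, all were tested, 10 of them estimated higher and 4 lower, with a median of 0.21. Runx1, whose counts can include reads of the fusion, measured 351, 262 and 264 CPM under vehicle against 558, 377 and 367 CPM under panobinostat. Its groups did not overlap, with a log2 fold change of 0.57 (SE 0.21, edgeR adjusted p 0.998). Without both libraries numbered 1 edgeR called 5 of the 14 higher and 0 lower, against 7.36% and 4.65% of all tested genes. The 5 were Runx1 (0.49, adjusted p 0.0155), Fli1 (0.58, adjusted p 0.0133), Runx3 (1.16, adjusted p 0.0351), Mitf (0.88, adjusted p 0.0363) and Meis1 (5.01, adjusted p 0.00434). Meis1 was at no more than 0.258 CPM in the vehicle libraries that remained. The median of the list was 0.59 without vehicle library 1 and 0.44 without both. Myb, the most abundant of them per length, Bcl11a, a repressor of fetal globin, and Erg had log2 fold changes of 0.14 (SE 0.15), 0.28 (SE 0.15) and 1.05 (SE 0.59), and Erg was at most 1.64 CPM.

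Fli1, a megakaryocytic factor that opposes KLF1 in the choice between red cell and megakaryocyte, was set against Klf1 within each library. Klf1 divided by Fli1, both in RPKM, was 9.06, 18.9 and 16.1 in vehicle and 4.45, 13.1 and 12.0 in panobinostat libraries 1, 2 and 3. Klf1 was the higher gene in all 6 libraries, and within each group the library numbered 1 had the lowest ratio. The group difference on the log2(RPKM + 0.1) scale was -0.66, from 3.80 ± 0.55 to 3.14 ± 0.86 (SD, n = 3), with p = 0.4 in an exact two-sided permutation test. It was -0.16 (exact p = 0.8) without panobinostat library 1. Fli1 itself, as given above, was called higher without both libraries numbered 1, a setting added after the data were seen. Klf1 was not (0.09, edgeR adjusted p 0.663), but a call of 1 gene alone does not test the difference between them. The level difference was -0.47 in that setting.

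Genes that the factors are known to control gave 0 calls with all 6 libraries; without both libraries numbered 1 edgeR called 4 of 21 red cell genes higher and 2 lower, 3 of 10 megakaryocyte genes higher and 0 lower, and 3 of 11 mast cell genes higher and 0 lower, against 7.36% and 4.65% of all tested genes. Of 23 red cell genes 21 were in the table and tested, 2 of them estimated higher and 19 lower, with a median of -0.25 and 0 called; the median was -0.42 without vehicle library 1 and -0.11 without both libraries numbered 1. Their summed level ran from 11196 to 26360 CPM in vehicle and from 4430 to 26268 CPM in panobinostat libraries, lowest in panobinostat library 1, where 6 of the 10 factors were also lowest. Much of that sum was Hba-a1, Hba-a2 and Hbb-bs, and without these 3 globin genes the vehicle libraries held 4876, 6423 and 6032 CPM and the panobinostat libraries 2569, 5657 and 6469 CPM, so that vehicle library 1 went from the highest to the lowest of its group. Hba-a2, an alpha globin gene nearly identical to Hba-a1, so that reads may be split between them, measured 11004, 5940 and 2794 CPM under vehicle against 856, 7647 and 10307 CPM under panobinostat. Urod, an enzyme of haem synthesis, and Kel, a blood group antigen, had log2 fold changes of -0.41 (SE 0.26) and -0.32 (SE 0.25). Vehicle library 1, the highest for Gata1, was also the highest for Hba-a2.

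Of 16 megakaryocyte genes 10 were tested, 4 of them estimated higher and 6 lower, with a median of -0.03 and 0 called. That median turned to 0.43 without vehicle library 1 and was 0.50 without both libraries numbered 1. Gp5, a platelet glycoprotein and the most abundant of them per length, measured 269, 236 and 234 CPM under vehicle against 211, 307 and 285 CPM under panobinostat, lowest in panobinostat library 1 like Gata1. Pf4, platelet factor 4, named after its values were seen, measured 19.9, 0.803 and 0.725 CPM under vehicle against 1.20, 21.7 and 20.7 CPM under panobinostat, high in the same 3 libraries in which Zfpm1 and Gfi1b were high. Itgb3 and Tubb1, an integrin and a tubulin of platelets, were at most 1.39 and 1.42 CPM. The list's summed level ran from 352 to 640.2 CPM in vehicle and from 377 to 544 CPM in panobinostat libraries, highest in vehicle library 1.

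Of 14 mast cell and basophil genes 12 were tested, 11 of them estimated higher and 1 lower, with a median of 0.63 and 0 called; the median was 1.143 without vehicle library 1 and 0.10 without both libraries numbered 1. Their summed level was 2875 to 3208 CPM in vehicle and 2876 to 5305 CPM in panobinostat libraries, highest in panobinostat library 1, the library with the highest Gata2 and the lowest Gata1. Hdc, histidine decarboxylase, measured 420.1, 553 and 477 CPM under vehicle against 1325, 553 and 559 CPM under panobinostat, and Cpa3, a mast cell protease, stood at 25.9, 13.6 and 6.35 and then 210.1, 15.8 and 22.0 CPM. Tpsab1, a tryptase, was at 15.5 CPM in panobinostat library 1 and at most 0.821 CPM elsewhere, and Srgn, serglycin of secretory granules, had a log2 fold change of 0.005 (SE 0.24). Without vehicle library 1 edgeR called 1 gene over all these lists, against 2.42% of all tested genes. It was Fcer1a, a chain of the IgE receptor, at a log2 fold change of 2.94 (edgeR adjusted p 0.0173). Not every gene of the list followed its sum, since Fcer1a was at 60.8 CPM in vehicle library 1 and 27.4 CPM in panobinostat library 1. Kit and Il1rl1, also of the list and named after their values were seen, were highest in vehicle library 3. They measured 266 and 1218 CPM there, against 241 and 1203 CPM in panobinostat library 1. The part of mast cells, basophils or red cell precursors in the values of the 10 genes was not tested, and in bulk libraries fewer cells of a type and less RNA per cell cannot be told apart.

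Markers of other cells that the sort could hold were low beside the 10 genes. The summed level of 10 B cell markers was 29.5 to 49.1 CPM in vehicle and 5.50 to 31.2 CPM in panobinostat libraries, and that of 10 T cell markers 9.40 to 13.6 and 2.14 to 10.6 CPM, both lowest in panobinostat library 1. Cd79a, the B cell marker with the highest level per length, was at most 10.1 CPM and Lck, that of T cells, at most 5.88 CPM. In panobinostat library 1 Pax5, Cd8b1 and Cd5 had 0 counts. All 10 B cell and all 10 T cell markers were tested, each list with 10 of 10 estimates lower and 0 called. The summed level of 10 granulocyte and monocyte markers was 17.2 to 20.2 and 9.40 to 19.3 CPM, with 7 tested, 7 of 7 estimates lower and 0 called, and Ly6g had at most 2 counts in a library. Median log2 fold changes of the B cell, T cell, and granulocyte and monocyte lists were -1.27, -0.89 and -0.49. They were -1.32, -0.84 and -0.68 without vehicle library 1, and -0.95, -0.31 and -0.22 without both libraries numbered 1. The label of the cells as leukaemia rests on the sort, since GFP counts were not used here.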

How the data were processed

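RNA was measured in 6 libraries, 3 per group, made with a TruSeq mRNA kit from total RNA, per the labels' protocols. The authors deposited whole-number read counts per Entrez gene without normalization, judging from the values. By the submitters' processing notes, cutadapt 2.1, HISAT2 2.1.0, featureCounts and Subread 2.0.0 were among the tools and mm10 was the build; annotation, options and strand are not stated. Of 27179 identifiers 25275 matched a symbol in RefSeq's GRCm38.p6 table. Columns were assigned to groups by the words treated and ctrl in their names.

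Genes were kept by edgeR's filterByExpr (minimum count 10), scaled by TMM factors and tested with edgeR 4.0.16 under R 4.3.3 by the robust quasi-likelihood F-test, panobinostat against vehicle, two-sided, with Benjamini and Hochberg's adjustment over all tested genes and a threshold of 0.05. The standard error is the log2 fold change divided by the square root of F, and 95% intervals use the t quantile of the fit. Centred values are log2 CPM with a prior count of 2. RPKM uses merged exons of GENCODE M21's basic annotation (GRCm38), so levels per length depend on that gene model. A count of 0 allows up to 3 counts, 0.0834 to 0.0948 CPM; this covers counting error only. On simulated counts for this comparison, with 13207 genes, 38 of 100 genes altered 2-fold and 68 of 100 altered 4-fold were recovered, and 9 unaltered genes were called.

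The members and gene lists were chosen with earlier results of these data known. Besides the 10 members, the rule named from each list the gene with the highest level per length and the 3 with the smallest p, and the 5 genes most like Gata1 and Gata2. Of the genes so named, Ebf1, Cd79b, Cd2, Itgam, Lyz2, Cd68 and S100a9, all low, are covered by their lists' sums, and some others are not reported here. Genes named outside the rule were chosen after their values were seen. Alternatives were DESeq2 1.42.0, limma-voom (limma 3.58.1), fits scaled by RLE, by upper quartile or by library size alone, an unfiltered table, a mean CPM of 1 or more, no robust option, the replicate block, other pseudocounts (0.5 and 0.01 RPKM against 0.1) for the level differences, and leaving out each library. Omitting both libraries numbered 1 was an addition made once the data had been seen.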

Additional observations from a re-analysis of the deposited data

How the results depend on the processing

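Of the 10 genes 0 were called under every alternative with at most 1 library left out, and 3 without both libraries numbered 1. Over all genes the count of 0 rose to 9 with DESeq2, ran from 0 to 324 with 1 library left out (324 without vehicle library 1) and was 1590 without both libraries numbered 1. For the genes of the other lists, 110 of them tested with all 6 libraries, it ran from 0 to 1 with 1 library left out. It was 21 without both libraries numbered 1, 16 higher and 5 lower, where 12.0% of all tested genes were called. The replicate block called 0 genes. Same-numbered vehicle and panobinostat libraries did not deviate together (r across genes of -0.139, 0.072 and -0.203). With 3 libraries per group these values cannot settle whether the numbers mark pairs, and pairs were not used in the main fit. Under the block the level differences were tested by exact sign flips over the 3 same-numbered pairs, whose smallest possible p is 0.25. The p from these flips was 0.75 for Gata1 to Gata2 (-0.26) and 0.25, that smallest value, for Klf1 to Fli1 (-0.66). The block cannot move the sizes of these differences in a balanced design.

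The fold changes of Gata2, Tal1 and Lyl1 were above 0 in every alternative, and those of the other 7 genes turned sign in at least 1. With 1 library left out the log2 fold change ran from -0.16 to 0.15 for Gata1, 0.03 to 0.38 for Gata2, -0.23 to 0.55 for Zfpm1, 0.05 to 0.29 for Tal1, -0.17 to 0.20 for Lmo2, -0.10 to 0.17 for Ldb1, 0.02 to 0.30 for Lyl1, -0.29 to 0.13 for Klf1, -0.42 to 0.41 for Gfi1b and -0.26 to 0.28 for Nfe2. Without both libraries numbered 1 the sign turned for Gata1 (0.28), Lmo2 (0.34), Klf1 (0.0943), Gfi1b (0.74) and Nfe2 (0.39). Ldb1 turned to -0.0004 with library size alone, -0.0031 with limma-voom and -0.0024 under the replicate block. The level difference of Gata1 to Gata2 ran from -0.49 to 0.12 with 1 library left out and was 0.0862 without both libraries numbered 1, and that of Klf1 to Fli1 ran from -0.97 to -0.16. The cause of these turns beyond the libraries left out was not tested.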
